A study of Mus musculus with 32 samples.

Results

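A set of 10 genes that mark adipose progenitor cells and fibroblasts were followed across 32 mouse microarrays. They are the receptors Pdgfra and Pdgfrb, the surface proteins Ly6a, Cd34, Dpp4, Fap and Dlk1, the matrix component Mfap5, and the cytoskeletal genes Vim and Gsn. They were chosen by name, with earlier results of these data known, and every probe whose accession belongs to one of these symbols was taken. Counts of these genes set beside all genes are therefore a description. All 10 genes, of 20659 genes named on the array, were found, with 13 of 39429 probes. Cd34, Dlk1 and Gsn had 2 probes each, and the brighter one on average was used unless the second is mentioned.

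White and brown adipocytes arise from stromal progenitors that carry PDGF receptors and, in many depots, Ly6a (Sca-1) and Cd34. As these cells become adipocytes under the nuclear receptor Pparg, they lose fibroblast features and gain genes of lipid storage. Progenitors committed to the adipocyte lineage express Pdgfra, while Pdgfrb is also carried by the mural cells of blood vessels. Dpp4 marks an early, interstitial progenitor, and Dlk1 (Pref-1) is a preadipocyte protein whose release holds back differentiation.

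Samples of C57Bl/6 mice, labelled preadipocytes throughout, fell into 8 groups of 4 arrays. The in vitro groups were Pparg control and Pparg KnockDown, and Gyk control and Gyk KnockDown, all labelled room temperature, with no vector or guide named. Gyk is glycerol kinase, named Gk in current annotation. The in vivo groups were Pparg control and Pparg KnockOut, each at room temperature (RT) and after cold exposure (CE). The labels give neither the age of the animals, the length of the cold exposure, the promoter that drives a deletion, the part of Pparg deleted, nor whether a group holds 4 separate animals or cultures. P-values therefore describe how these arrays vary within a group, which may be only technical. Each of the 4 experiments (2 in culture, RT mice and CE mice) was hybridised on its own pair of slides and scanned on its own day, and each slide held 2 arrays of each of its groups. Cold and room temperature, and culture and mouse, therefore cannot be told apart from slide and scan day.

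The arrays differed in brightness, with a 75th percentile between 140.7 and 808.2 in intensity units, Gyk knockdown arrays 3 and 4 being lowest (140.7 and 241.7). Pparg signal fell in the Pparg knockdown (log2 −1.92, SE 0.12, adjusted p = 7.49e-06), and Gk signal fell in the Gyk knockdown (log2 −2.40, SE 0.39, adjusted p = 0.0117). On the mouse arrays the Pparg probe went the other way. It was higher on arrays labelled knockout at room temperature (log2 2.07, SE 0.09, adjusted p = 4.45e-06) and in the cold (log2 2.13, SE 0.22, adjusted p = 0.000387), and whether the probe lies in a deleted part is not known here. Every direction given for mice therefore rests on the labels. Ucp1, a brown fat gene, was lower on knockout arrays at room temperature (log2 −1.02, adjusted p = 0.0022) and in the cold (−1.01, adjusted p = 0.0201). Cold arrays read lower than room temperature arrays for Ucp1, in controls (−1.04, adjusted p = 0.000448) and knockouts (−1.03, adjusted p = 0.0103). For Gk they also did (−2.24 and −2.40). What this says of the temperature labels was not tested. Adipocyte markers were well above background on at least 1 array of every group (13 of 13), although the samples are labelled preadipocytes. In each mouse group 9 of 9 macrophage and 10 of 10 endothelial markers were well above background on at least 1 array. In the culture groups 5 to 6 macrophage markers and 2 to 4 endothelial markers were.

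All levels below are log2 signal minus the 75th percentile of the array, so a level of 0 is as bright as that percentile. Levels of different genes come from different probes and are not comparable. A change is the difference of 2 group means of such levels with the standard error (SE) of the limma fit. It was called where the Benjamini-Hochberg adjusted p over all genes tested was under 0.05.

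**Figure D1:**
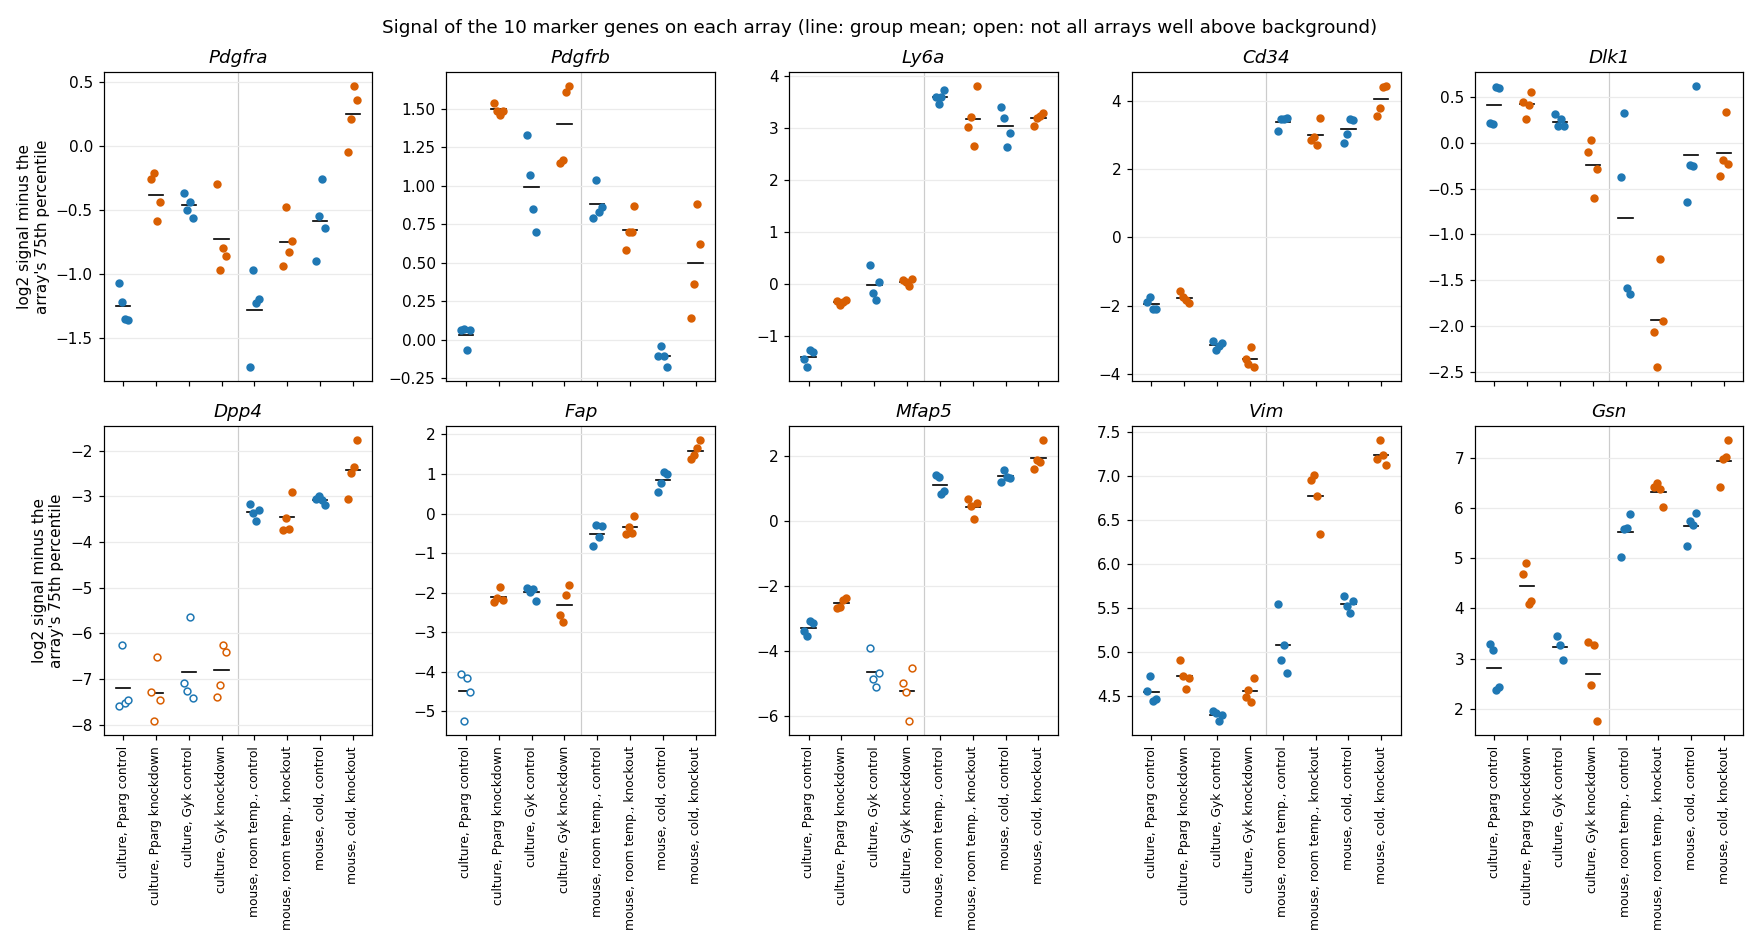
Level of each of the 10 genes on every array (y axis: log2 signal minus the 75th percentile of the array; x axis: the 8 groups; blue: control, orange: knockdown or knockout; line: mean of the group; open points: a group with arrays not well above background). Vim lay between 4.76 and 5.63 on the mouse control arrays and between 6.34 and 7.41 on the arrays labelled knockout, while Dpp4 was open in all 4 culture groups.

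In cultured cells, Pparg knockdown was accompanied by higher levels of most of the progenitor and fibroblast markers. In this comparison both PDGF receptors, the stem cell antigen Ly6a, the fibroblast protease Fap, the microfibril protein Mfap5 and the actin-severing protein Gsn rose. Cd34, Dlk1 and Vim did not pass the threshold, and Dpp4 was not well above background on any of these arrays and was not tested. Of 9 genes tested 6 rose and 0 fell, where 17.8% of all 12843 genes tested rose and 17% fell. The arrays of the 2 groups did not overlap for these 6 genes, as for 18.3% of all genes in this direction. The median change of the 9 was 0.87, against 0.0138 over all genes. The slide was not in this fit. With the slide as a block 8 of the 9 rose and 0 fell, where 3858 of the 12843 genes rose and 3789 fell. In such bulk RNA, more or fewer cells of a type and more or less RNA per cell cannot be told apart.

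Pdgfra encodes the alpha receptor for platelet-derived growth factors. It read −1.07, −1.22, −1.35 and −1.36 on the 4 Pparg control arrays and −0.26, −0.21, −0.59 and −0.44 on the knockdown arrays. No control array reached the lowest knockdown array, and the change was 0.87 (SE 0.11, adjusted p = 0.000396), or 1.83-fold. For Pdgfrb, the beta receptor, control arrays gave 0.06, 0.07, −0.07 and 0.06 and knockdown arrays 1.54, 1.49, 1.46 and 1.49. The groups were far apart and each within a narrow range, and Pdgfrb rose 2.76-fold (log2 1.47, SE 0.07, adjusted p = 1.69e-06). The PDGF ligands moved unequally: of 3 tested, Pdgfa rose (log2 0.35, SE 0.09, adjusted p = 0.0192), Pdgfc fell (log2 −0.78, SE 0.13, adjusted p = 0.00197), and Pdgfb did not pass (0.00, adjusted p = 0.995).

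Ly6a, a GPI-anchored surface protein used to sort progenitors, read −1.45, −1.60, −1.26 and −1.31 in controls and −0.32, −0.40, −0.34 and −0.31 in the knockdown. Its groups did not overlap, and it rose 2.09-fold (log2 1.06, SE 0.09, adjusted p = 3.95e-05). Other Ly6-type genes did not share one direction: of 6 tested, Ly6c1 rose (log2 0.79) and 3 fell, among them Ly6h (log2 −3.09, SE 0.08, adjusted p = 1.14e-07). Cd34, a sialomucin of progenitors and endothelium, overlapped between the groups. It read −1.90, −1.74, −2.11 and −2.09 in controls and −1.57, −1.76, −1.83 and −1.92 in the knockdown (log2 0.19, 95% interval −0.07 to 0.45, adjusted p = 0.244). With the slide as a block the same difference passed (adjusted p = 0.0279).

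Fap, a serine protease of activated fibroblasts, had the largest change of the 9 genes tested. Control arrays read −4.06, −5.25, −4.15 and −4.52, with 3 of 4 well above background, and knockdown arrays −2.23, −2.13, −1.85 and −2.18. The difference was 2.40 (SE 0.25, adjusted p = 0.000127), but it was 0.75 and not called (adjusted p = 0.149) under another background correction, normexp. Its close relative Dpp4 read between −7.92 and −5.65 on the culture arrays, in no case well above background. Of the other prolyl peptidases, 2 of 6 tested rose, Dpp7 (log2 1.51, SE 0.16, adjusted p = 0.000169) and Prcp (log2 0.78). Dlk1, the preadipocyte protein, read 0.22, 0.20, 0.61 and 0.60 in controls and 0.45, 0.26, 0.41 and 0.55 in the knockdown, and these ranges overlapped. The 95% interval of its difference ran from −0.28 to 0.30 (adjusted p = 0.964).

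Mfap5, which decorates elastic microfibrils, read −3.38, −3.54, −3.06 and −3.12 in controls and −2.68, −2.64, −2.43 and −2.37 in the knockdown. Every knockdown array lay above every control array (log2 0.74, SE 0.13, adjusted p = 0.00221), though normexp left a difference of 0.13 (adjusted p = 0.751) and a fit over all groups in culture gave an adjusted p of 0.0896. Gsn, which severs and caps actin filaments, read 3.29, 3.17, 2.37 and 2.43 in controls and 4.68, 4.90, 4.09 and 4.14 in the knockdown. Arrays 1 and 2 shared a slide and lay above arrays 3 and 4 in both groups. Gsn rose by 1.64 (SE 0.27, adjusted p = 0.0018), with within-slide differences of 1.56 and 1.71, and its second probe gave 1.61. Capg, also of the gelsolin family, rose by 1.66 (SE 0.13, adjusted p = 3.1e-05). Vim, the main intermediate filament of mesenchymal cells, read 4.55, 4.72, 4.44 and 4.46 in controls and 4.91, 4.72, 4.58 and 4.70 in the knockdown. These ranges overlapped (log2 0.18, 95% interval −0.04 to 0.41, adjusted p = 0.196), and the difference passed only with the slide as a block (adjusted p = 0.0343).

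Lists of other genes describe the same cells. Of 20 fibroblast matrix genes tested, 15 rose and none fell (median 0.46), led by elastin (Eln, log2 2.66, SE 0.15), the calcification inhibitor Mgp (2.45, SE 0.16) and the collagen cross-linker Lox (1.95, SE 0.14). Of 18 other adipose progenitor markers tested 4 rose, including Nt5e (1.39, SE 0.18, not well above background on any control array), F3 (0.78) and Klf4 (0.64), and 1, Col15a1, fell (−1.0, SE 0.26). The share of these markers that rose was near the 17.8% of all genes. Notch pathway genes, listed together with the transcription factor Sox9, rose in 4 of 8 cases and fell in 1, with the receptor Notch3 at 1.22 and its ligand Jag1 at 1.02. Adipocyte markers fell in 11 of 13 cases, none rose, and the median was −1.71. Ucp1, the brown fat uncoupling protein, fell by 2.85 and the hormone-sensitive lipase Lipe by 2.48. Mural markers gave 1 higher (Myh11, 0.93) and 2 lower (Cspg4, −1.12, and Mcam, −0.55) of 6, and intermediate filament and lamin genes 2 higher (Synm, 2.53, and Lmnb1, 0.89) and 1 lower (desmin, Des, −1.02) of 7. Among markers of other cell types, 0 of 4 macrophage markers were called, 1 of 3 endothelial markers rose, 2 of 4 skeletal muscle markers fell, and 1 of 5 nerve markers rose and 1 fell. Of lymphocyte markers 1 of 2 rose, and of mesothelial markers 2 of 2 fell.

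**Figure D2:**
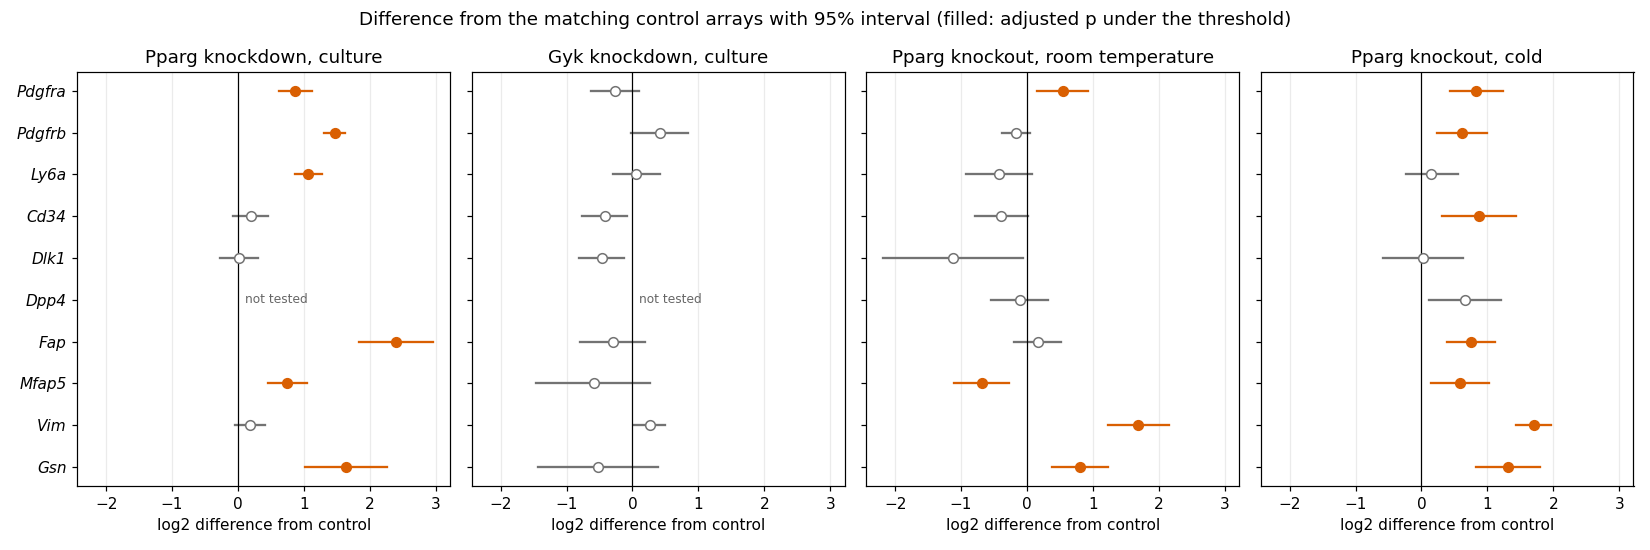
Difference of each gene from the matching control arrays in 4 comparisons: both culture knockdowns and the mouse knockout at either temperature (x axis: log2 difference; bars: 95% interval of the limma fit; filled: adjusted p under 0.05). Pdgfra is filled on the right of 0 in all comparisons but the Gyk knockdown, and Mfap5 is at −0.68 at room temperature and 0.58 in the cold.

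In the Gyk knockdown no gene of the set passed the threshold, and Dpp4 was again not well above background and not tested. Of 9 genes tested, 0 were called by limma, where 4.5% of 12219 genes tested rose and 4.14% fell. At an unadjusted p under 0.05, Cd34 (−0.42), Dlk1 (−0.47) and Vim (0.27) differed. These are 3 of 9 genes, where 3235 of all 12219 genes tested had such a p. Without knockdown arrays 3 and 4, those of lowest brightness, Cd34 (log2 −0.48, adjusted p = 0.045) and Fap (log2 −0.66, adjusted p = 0.032) were lower in the knockdown, and without array 3 alone Cd34 was (log2 −0.54, adjusted p = 0.0411). Over all genes tested, 753 of 12147 were called lower in the first of these fits and 388 of 12183 in the other. Cd34 and Dlk1 were also called when all culture groups shared 1 fit (adjusted p = 0.0433 and 0.0299). In that fit 1132 of 13118 genes tested were called lower.

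Pdgfrb read 1.33, 1.07, 0.85 and 0.70 in Gyk controls and 1.15, 1.17, 1.61 and 1.65 in the knockdown, and only knockdown arrays 3 and 4 stood above all controls. Its difference was 0.41 (SE 0.19, adjusted p = 0.201), with −0.04 on one slide and 0.86 on the other, which holds knockdown arrays 3 and 4. Pdgfra read −0.37, −0.50, −0.44 and −0.56 in controls and −0.30, −0.97, −0.80 and −0.86 in the knockdown (adjusted p = 0.312). Knockdown array 1 was above all controls and the other knockdown arrays below them.

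Dlk1 read 0.31, 0.18, 0.26 and 0.18 in controls and −0.10, 0.03, −0.60 and −0.29 in the knockdown. By this brighter probe all knockdown arrays lay below all controls, as for 11% of all genes tested in this direction, and the adjusted p was 0.0882. By the second probe of Dlk1 the groups overlapped (−0.35, adjusted p = 0.457). Vim read 4.33, 4.31, 4.21 and 4.28 in controls and 4.49, 4.57, 4.43 and 4.70 in the knockdown, again without overlap (higher without overlap: 11.3% of genes; adjusted p = 0.149). Cd34 ranged from −3.30 to −3.05 in controls and from −3.81 to −3.22 in the knockdown. Ly6a (log2 0.06, adjusted p = 0.823) and Fap (−0.30, adjusted p = 0.391) overlapped. Gsn was at 3.45, 3.26 and 2.98 on 3 control arrays, the first control array being left out as an outlying spot, and spread from 1.75 to 3.33 in the knockdown (log2 −0.53, adjusted p = 0.417). Its second probe had the opposite sign (0.27, adjusted p = 0.54). Mfap5 was well above background on 3 of 4 control and 1 of 4 knockdown arrays (log2 −0.59, adjusted p = 0.342). Beside these genes, 4 of 18 other progenitor markers rose, among them Klf4 (0.98, SE 0.14) and the hyaluronan receptor Cd44 (0.95, SE 0.19), as did 4 of 20 fibroblast matrix genes, Thbs1 (1.14), Lox (1.13), Col5a1 (0.56) and Fn1 (0.54). PDGF ligands went both ways, Pdgfa rising (0.79) and Pdgfc falling (−0.62), as did mural markers (2 higher and 1 lower of 6), prolyl peptidases (1 and 1 of 6) and intermediate filament and lamin genes (1 and 1 of 7). Of the gelsolin family 1 of 5 fell, of Notch genes 1 of 8 fell, and of 6 Ly6-type genes 0 were called. Adipocyte markers fell in 4 of 13 cases and none rose. None of the 4 macrophage, 2 endothelial, 3 skeletal muscle and 2 lymphocyte markers tested was called, while 1 of 5 nerve and 1 of 2 mesothelial markers rose.

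The Pparg and Gyk knockdown effects differed for most of the genes. The difference between the 2 effects was called for 7 of 9 genes, each with the higher change in the Pparg knockdown, against 6.25% of 13118 genes in that direction and 6.52% in the other. The largest were Fap (2.70, SE 0.35, adjusted p = 9.32e-05) and Gsn (2.16, SE 0.50, adjusted p = 0.0103). Pdgfra (1.14, SE 0.20), Pdgfrb (1.06, SE 0.20) and Ly6a (1.0, SE 0.18) had adjusted p between 0.00117 and 0.00256. Mfap5 (1.34, adjusted p = 0.0498) and Cd34 (0.61, adjusted p = 0.0499) were at the threshold, and each lost its call in 17 alternatives, Cd34 reaching −0.03 under normexp, which also ended the call of Fap (0.91, adjusted p = 0.246). Gsn was lost with the mean of its probes (1.53, adjusted p = 0.0571), and its second probe gave 1.33 (SE 0.63) and did not pass (adjusted p = 0.211). Both experiments had their own slides and day, and only differences within each experiment entered.

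In mice at room temperature, arrays labelled Pparg knockout had higher Vim, Gsn and Pdgfra and lower Mfap5 than control arrays. Of 10 genes tested 3 rose and 1 fell, where 19.5% of 13232 genes rose and 25.1% fell, so the share called was near that of all genes. The median change of the 10 genes was −0.14, against −0.0482 over all genes.

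Vim read 5.55, 4.91, 5.08 and 4.76 on control arrays and 6.95, 7.01, 6.77 and 6.34 on knockout arrays. It rose 3.24-fold (log2 1.69, SE 0.20, adjusted p = 0.000344). The within-slide values were 1.33 and 2.06, and no array of one group came within the range of the other. Gsn read 5.02, 5.58, 5.60 and 5.87 in controls and 6.41, 6.49, 6.37 and 6.02 in knockouts, and rose 1.75-fold (log2 0.81, SE 0.19, adjusted p = 0.00848), as it did with its second probe (0.82). Pdgfra read −1.73, −0.97, −1.23 and −1.20 against −0.94, −0.48, −0.83 and −0.74. The groups lay close together but did not overlap (log2 0.54, SE 0.17, adjusted p = 0.0328), and the call was lost without control array 3 or 4, or without knockout array 2, 3 or 4 (adjusted p 0.0529 to 0.0829), and under normexp (0.35, adjusted p = 0.137). Mfap5 went down, from 1.42, 1.34, 0.83 and 0.91 to 0.69, 0.46, 0.06 and 0.55 (log2 −0.68, SE 0.18, adjusted p = 0.0155). Within its slides it read −1.07 and −0.30.

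Dlk1 was widely scattered, and its groups overlapped. Controls read −0.37, 0.33, −1.59 and −1.65 and knockouts −2.07, −2.45, −1.27 and −1.95. The mean was lower in knockouts by 1.12 (SE 0.46), which did not pass (adjusted p = 0.0814) but passed with the slide as a block (adjusted p = 0.0125) or without control array 4 (adjusted p = 0.0458). Its second probe gave −1.63 (SE 0.41, adjusted p = 0.0122), well above background on 3 of 4 control and 1 of 4 knockout arrays. Ly6a read 3.58, 3.45, 3.59 and 3.73 in controls and 3.02, 3.21, 2.65 and 3.80 in knockouts (adjusted p = 0.149). Cd34 read 3.13, 3.49, 3.49 and 3.50 against 2.87, 2.94, 2.73 and 3.52 (adjusted p = 0.111). Its second probe, well above background on all of these arrays, was lower in knockouts and passed (−0.65, SE 0.20, adjusted p = 0.0315). By the probes used, knockout array 4 was the highest for both Ly6a and Cd34. Without it both were lower in knockouts (Ly6a −0.63, adjusted p = 0.0111, and Cd34 −0.55, adjusted p = 0.00923). Pdgfrb (−0.16), Dpp4 (−0.11) and Fap (0.16) overlapped between the groups, with adjusted p of 0.187, 0.659 and 0.418.

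Matrix genes went both ways at room temperature. Of 22 fibroblast matrix genes 2 rose, among them Lox (1.69, SE 0.25), and 4 fell, among them Loxl1 (−1.05), Mfap4 (−1.03) and Sparc (−0.79). Other progenitor markers gave 2 higher (F3 1.03 and Nt5e 0.88) and 1 lower (Anxa3 −0.91) of 23. The PDGF ligand Pdgfc rose (0.75, SE 0.16) and Pdgfb fell (−0.59, SE 0.09). The Notch list, which also holds Sox9, a factor of progenitor and cartilage cells, gave 3 higher and 3 lower of 12. Notch2 was at 1.89 and Sox9 at 2.63 (above background on 1 of 4 control arrays). Prolyl peptidases gave 2 higher and 1 lower of 6, the gelsolin family 1 and 1 of 5, Ly6-type genes 0 and 3 of 8, and mural markers 0 and 3 of 9. None of 7 other intermediate filament and lamin genes was called beside Vim. Adipocyte markers fell in 8 of 13 cases, with Adipoq at −1.68. Endothelial markers fell in 6 of 10 cases, with summed signal of 24.5 to 38.4 times the 75th percentile on control arrays and 19.7 to 22 on knockout arrays. Macrophage markers were called in 0 of 9 cases (summed 23 to 34.5 and 28 to 32.5). Nerve markers rose in 4 of 6 cases, 0 of 4 skeletal muscle markers were called, 1 of 2 lymphocyte markers fell and 1 of 2 mesothelial markers rose. The part of these cell types in the changes above was not tested.

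The upstream sequences of Vim and Gsn, which rose in both knockout comparisons, and of Cd34, which rose in the cold, are shown to compare what lies before their starts. RefSeq listed such a sequence for 6 of the 10 genes on GRCm38.p6. Each run is the 250 bases before the annotated start, 5′ to 3′, and for Gsn the first of 3 listed starts was taken. The positions are chr2:13574061-13574310 (+ strand) for Vim, chr2:35256109-35256358 (+ strand) for Gsn and chr1:194938571-194938820 (+ strand) for Cd34. Capitals mark matches, on either strand, to TATAAA (the TATA box), CCAAT (the core of NF-Y sites), GGGCGG (the GC box of Sp1), AGGTCA (the core of nuclear receptor sites), TGANTCA (the AP-1 motif) or GGAATG (the TEAD motif), and no matches overlapped.
Vim: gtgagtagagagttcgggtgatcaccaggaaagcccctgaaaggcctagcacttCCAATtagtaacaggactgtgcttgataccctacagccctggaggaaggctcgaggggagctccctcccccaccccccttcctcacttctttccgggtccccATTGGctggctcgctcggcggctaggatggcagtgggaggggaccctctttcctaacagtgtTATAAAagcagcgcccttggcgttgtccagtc
Gsn: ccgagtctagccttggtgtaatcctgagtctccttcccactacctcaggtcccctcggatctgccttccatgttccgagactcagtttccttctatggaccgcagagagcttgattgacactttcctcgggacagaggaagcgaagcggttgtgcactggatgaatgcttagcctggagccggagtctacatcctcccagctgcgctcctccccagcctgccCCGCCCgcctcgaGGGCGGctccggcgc
Cd34: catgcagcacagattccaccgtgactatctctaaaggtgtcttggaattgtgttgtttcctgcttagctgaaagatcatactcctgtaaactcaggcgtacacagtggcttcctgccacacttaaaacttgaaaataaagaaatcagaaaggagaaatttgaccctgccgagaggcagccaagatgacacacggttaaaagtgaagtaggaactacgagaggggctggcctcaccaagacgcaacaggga

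The Vim run held TATAAA 32 bases before the start and CCAAT 196 and 94 bases before it, the second on the reverse strand. Gsn held GGGCGG 28 and 15 bases before its start, the first on the reverse strand. Cd34 held none of these letters in this window. A match describes the letters only. Of 32851 listed promoters, 12.4% held TATAAA in the same window, 33.8% CCAAT and 32.7% GGGCGG. The other motifs, which none of the 3 runs held, were in 14% (AGGTCA), 6.75% (TGANTCA) and 12.6% (GGAATG) of them. The runs were 58.4%, 60.8% and 46.4% G and C.

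After cold exposure, arrays labelled Pparg knockout had higher signal for most of the 10 genes. Vim, Gsn, Cd34, Pdgfra, Pdgfrb, Fap and Mfap5 rose, which is 7 of 10 genes tested, and 0 fell, where 13.7% of 12983 genes rose and 18.2% fell. No arrays of the 2 groups overlapped for these 7 genes, as for 14% of all genes in this direction. The median change was 0.71, against −0.0516 over all genes. Macrophage markers rose with them: 9 of 9 were higher, the scavenger receptor Mrc1 by 1.10 and lysozyme Lyz2 by 1.05. Their summed signal was 18.6 to 22.5 on control and 28.4 to 50.6 on knockout arrays, and their part in these results was not tested. Without knockout array 4 only 4 of the 10 genes were called, Pdgfrb (adjusted p = 0.0611), Cd34 (0.0733) and Mfap5 (0.0856) being lost.

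Vim was well separated again, at 5.63, 5.52, 5.44 and 5.58 on control arrays and 7.19, 7.41, 7.24 and 7.13 on knockout arrays (3.25-fold, log2 1.70, SE 0.11, adjusted p = 6.39e-05). Gsn read 5.24, 5.73, 5.66 and 5.89 in controls and 6.42, 6.98, 7.01 and 7.35 in knockouts, without overlap (2.48-fold, log2 1.31, SE 0.22, adjusted p = 0.00317). Its second probe gave 1.50. The calls of Vim and Gsn held in all 17 alternatives run for each.

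Pdgfra rose from −0.90, −0.55, −0.26 and −0.64 to −0.05, 0.21, 0.47 and 0.36 (log2 0.83, SE 0.17, adjusted p = 0.0076). Pdgfrb read −0.11, −0.04, −0.11 and −0.18 in controls, a narrow range, and 0.14, 0.36, 0.88 and 0.62 in knockouts. Every knockout array was above every control array (log2 0.61, SE 0.16, adjusted p = 0.0216), with 0.33 and 0.90 within its slides, and the call was also lost without control array 4 (adjusted p = 0.0517). The PDGF ligands were called in 0 of 4 cases. The mural marker Cspg4, which Pdgfrb-positive pericytes carry, fell (−1.37, SE 0.18), as did Mcam (−1.25, SE 0.16), while Abcc9 (0.64) and Tagln (0.62) rose, in all 2 higher and 3 lower of 9 mural markers.

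Cd34 read 2.77, 3.04, 3.47 and 3.44 in controls and 3.56, 3.80, 4.42 and 4.45 in knockouts (log2 0.87, SE 0.25, adjusted p = 0.0272). The highest control array was just under the lowest knockout array, the call was lost in 7 of 17 alternatives (without control array 1 or 2 or knockout array 3 or 4, among others), and the second probe gave 0.18 (SE 0.35, adjusted p = 0.732). Fap rose from 0.54, 0.78, 1.04 and 0.99 to 1.39, 1.47, 1.65 and 1.86 (log2 0.75, SE 0.16, adjusted p = 0.00846). Both slides gave a like value, 0.77 and 0.74, and normexp ended the call (0.59, adjusted p = 0.0608). Dpp4 read −3.07, −2.99, −3.09 and −3.19 in controls and −3.07, −2.50, −2.35 and −1.77 in knockouts. Knockout array 1 lay among the controls and the others above them. The mean difference of 0.66 did not pass (adjusted p = 0.0665), but did without that array (0.88, adjusted p = 0.0106). Ly6a (0.15, adjusted p = 0.525) and Dlk1 (0.02, 95% interval −0.59 to 0.63, adjusted p = 0.964) overlapped.

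Mfap5 read 1.21, 1.58, 1.34 and 1.33 in controls and 1.60, 1.87, 1.82 and 2.49 in knockouts. Control array 2 was just below knockout array 1, and the rise of 0.58 was at the threshold (SE 0.19, adjusted p = 0.0489). It was lost in 8 of 17 alternatives (without control array 1, 3 or 4 or knockout array 2, 3 or 4, among others), with adjusted p from 0.0288 to 0.198 over all of them. Of 22 fibroblast matrix genes 10 rose and none fell, with Col3a1 (1.18, SE 0.19), lumican (Lum, 1.08, SE 0.18) and Col1a1 (1.05, SE 0.18) among them. Other progenitor markers rose in 5 of 22 cases, including Col15a1 (1.48, SE 0.29), Cd44 (1.34, SE 0.20) and the mesenchymal factor Prrx1 (1.04, SE 0.20). In the gelsolin family Capg (1.09), Vill (0.97) and Svil (0.67) rose, which is 3 of 5 tested. Of the Notch list, which holds Sox9, 2 of 10 genes rose, Sox9 among them (2.61, not above background on any control array). Prolyl peptidases gave 2 higher and 1 lower of 6, intermediate filament and lamin genes 1 and 1 of 7, and Ly6-type genes 0 and 1 of 7. Adipocyte markers fell in 8 of 13 cases and rose in 1. Endothelial markers rose in 1 of 10 cases, nerve markers in 2 of 6, and 0 of 2 lymphocyte markers were called, while 1 of 2 mesothelial markers rose and 1 fell. Skeletal muscle markers fell in 1 of 8 cases. Summed skeletal muscle signal ran from 17.5 to 374 on cold control arrays and from 7.97 to 48.8 on knockout arrays. Without control array 2, which held the highest muscle signal, 6 of the 10 genes were called, Cd34 being lost (adjusted p = 0.056).

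**Figure D3:**
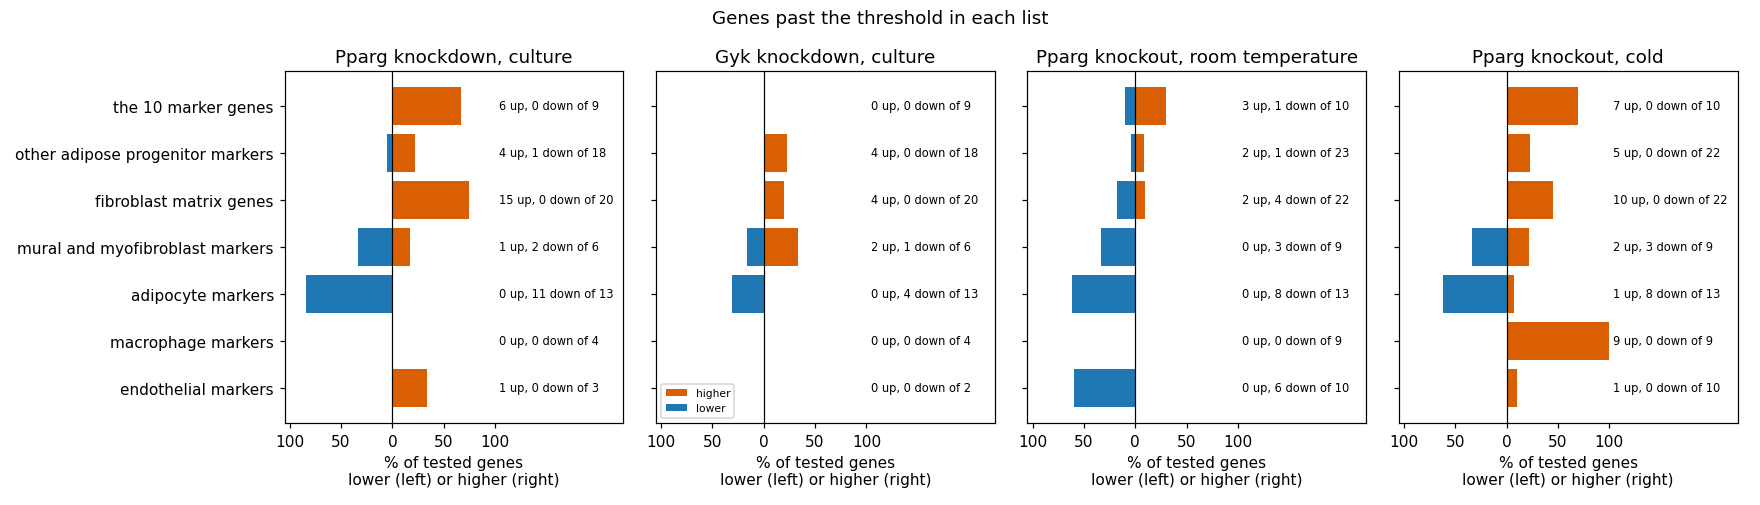
Share of the tested genes of each list that rose (orange, to the right) or fell (blue, to the left) in the 4 comparisons, with the counts printed beside each bar. The 10 marker genes and the fibroblast matrix genes have bars to the right in the Pparg knockdown (6 of 9 and 15 of 20) and in the cold knockout (7 of 10 and 10 of 22), while the adipocyte markers have bars to the left in all 4.

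The knockout effect was higher in the cold than at room temperature for 3 of 10 genes, where 6.13% of 14066 genes tested differed in this direction and 7.2% in the other. Mfap5 differed by 1.26 (SE 0.28, adjusted p = 0.0102), being lower in knockouts at room temperature and higher in the cold. Cd34 differed by 1.26 (SE 0.32, adjusted p = 0.0216) and Pdgfrb by 0.78 (SE 0.19, adjusted p = 0.0169). The second probe of Cd34 gave 0.83 (SE 0.44) and did not pass (adjusted p = 0.232). None of the 3 genes was called under normexp, with differences of 1.04, 1.05 and 0.71. For Vim the difference of effects was 0.01 (95% interval −0.50 to 0.51, adjusted p = 0.988). Gsn (0.50), Pdgfra (0.30), Fap (0.59), Dpp4 (0.77), Ly6a (0.57) and Dlk1 (1.14) had positive differences that did not pass, with adjusted p from 0.094 to 0.458. Both effects were taken within their own slides. The effect was also higher in the cold for 4 of 10 endothelial markers (median 0.78), a cell type that carries Cd34 too, and for 1 of 9 macrophage markers (0.58), with 0 lower in either list, and for 6 of 22 fibroblast matrix genes, with 1 lower (0.83). Of 9 skeletal muscle markers 0 were called. The part of these other markers was not tested.

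Cold against room temperature was compared in each genotype. In control mice 42.4% of 13139 genes tested rose and 24.4% fell, and the median of all genes was 0.255. The values of the 10 genes hold that shift, which cannot be told apart from slide and day. In controls Fap (1.34, SE 0.17), Pdgfra (0.69, SE 0.19) and Vim (0.47, SE 0.17) were higher in the cold and Pdgfrb (−0.99, SE 0.10) and Ly6a (−0.56, SE 0.17) lower. These 3 higher and 2 lower of 10 genes were not above the shares of all genes, and the median of the 10 was 0.25. The Vim call was lost in 9 of 17 alternatives, among them leaving out room temperature array 2, 3 or 4 or cold array 1, 2 or 4, and centring on the median of detected probes (0.34, adjusted p = 0.0932). The same contrast in knockouts gave 8 genes higher and 0 lower, where 42.4% of 13395 genes rose, 25.2% fell and the median was 0.246. Gsn is among the 8 by its brighter probe only (0.62), a call that was lost in 5 of 17 alternatives and turned direction in 1. The largest values of this contrast in knockouts were Fap (1.94, SE 0.15), Dlk1 (1.82, SE 0.26) and Mfap5 (1.50, SE 0.21). Cd34 (1.04), Dpp4 (1.03), Pdgfra (0.99) and Vim (0.47) followed, Vim not being called in 6 of 17 alternatives, centring on that median among them (0.38, adjusted p = 0.0546). Markers of other cell types also differed between the temperatures. In controls 3 of 5 skeletal muscle markers were higher in the cold, with a summed signal of 10.9 to 13.2 at room temperature and 17.5 to 374 in the cold, while macrophage markers gave 3 higher and 1 lower of 9 and endothelial markers 3 higher and 5 lower of 10. In knockouts 6 of 9 macrophage markers were higher and 1 lower (summed signal 28 to 32.5 at room temperature and 28.4 to 50.6 in the cold), 5 of 10 endothelial markers were higher and 3 lower (19.7 to 22 and 29.1 to 49.2), and 0 of 5 skeletal muscle markers were called. Their part in these results was not tested.

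The 2 probes of Gsn gave different directions in the cold. The brighter one gave 0.11 in controls and 0.62 in knockouts, and the second −1.40 (SE 0.23, adjusted p = 0.000599) and −0.71 (SE 0.26, adjusted p = 0.0352). No direction is therefore given for Gsn here, although the brighter probe passed in knockouts. For Cd34 the second probe rose in the cold in controls (1.02, adjusted p = 0.0304), where the brighter one gave −0.22, and both rose in knockouts (1.84 and 1.04). The probes of Dlk1 gave 0.69 and 0.53 in controls and 1.82 and 2.07 in knockouts.

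**Figure D4:**
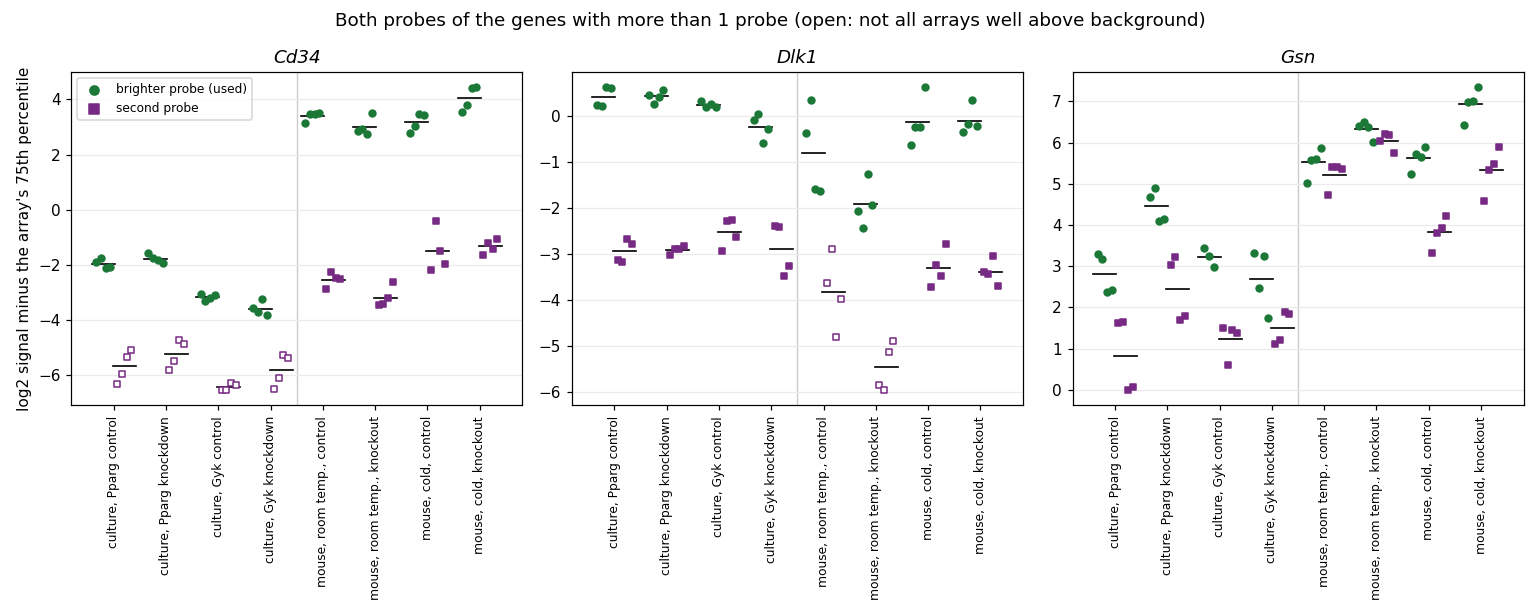
Levels of both probes of Cd34, Dlk1 and Gsn on every array (y axis: log2 signal minus the 75th percentile of the array; circles: the brighter probe, squares: the second; line: group mean; open: a group with arrays not well above background). The second Gsn probe averaged 5.22 in room temperature controls and 3.82 in cold controls, against 5.52 and 5.63 for the brighter one.

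Across the 8 groups the genes differed in where they were highest. Cold knockout mice had the highest mean of Pdgfra (0.25 ± 0.227, SD, n = 4), Cd34 (4.06 ± 0.445), Dpp4 (−2.42 ± 0.536), Fap (1.59 ± 0.209), Mfap5 (1.94 ± 0.379), Vim (7.24 ± 0.121) and, by its brighter probe only, Gsn (6.94 ± 0.386). The second probe of Gsn was highest in room temperature knockouts (6.04), with 5.33 in cold knockouts. By the brighter probes, the cold knockout arrays overlapped those of the next highest group for Dpp4 (cold control, −3.08) and Gsn (room temperature knockout, 6.32). They did not for Pdgfra, Cd34, Fap, Mfap5 and Vim, and the share of all genes without such an overlap was not computed. By the second probe of Cd34, cold knockouts (−1.63 to −1.07) overlapped cold controls (−2.18 to −0.41). Pdgfrb was highest in the Pparg knockdown culture (1.50 ± 0.0337), overlapping the Gyk knockdown (1.40). Dlk1 was highest in the same cultures (0.42 ± 0.12), overlapping their controls (0.41), while its second probe was highest in Gyk control cultures (−2.54). Ly6a was highest in room temperature controls (3.59 ± 0.116).

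At the low end, Fap (−4.49 ± 0.543) and Ly6a (−1.41 ± 0.152) were lowest in Pparg control cultures. Cd34 (−3.58 ± 0.26), Mfap5 (−5.22 ± 0.686) and Gsn (2.70 ± 0.743) were lowest in Gyk knockdown cultures, each overlapping the next group, and Vim in Gyk controls (4.28 ± 0.0502). By its second probe Gsn was lowest in Pparg control cultures (0.83), with 1.50 in Gyk knockdown cultures. Pdgfra (−1.28 ± 0.32) was lowest in room temperature controls, overlapping Pparg control cultures (−1.25), and Dlk1 (−1.93 ± 0.49) in room temperature knockouts. Pdgfrb (−0.11 ± 0.0591) was lowest in cold controls, overlapping Pparg control cultures (0.03). Every mouse array read above every culture array for Ly6a, Cd34, Dpp4, Fap, Mfap5 and Gsn. The share of all genes so separated was not computed, and culture and mouse also differ in slide and scan day. Dpp4 was not well above background on any culture array. Among the genes well above background on all 32 arrays, the span of the group means was widest for Cd34 (7.64) and narrowest for Pdgfra (1.53). With the brighter probe of each gene, the highest group was the same under 3 scalings for 10 of 10 genes and the lowest for 8 of 10.

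For the genes well above background on all 32 arrays, the profiles nearest to theirs were sought among 9456 genes, by the root mean square difference of the 8 centred group means. The mean profile of Cd34 lay nearest to Dcn (0.42), the collagen-binding proteoglycan decorin, and then Amy1 (0.682). Vim lay nearest to Pecr (0.223) and Klf10 (0.267), Pdgfra to Os9 (0.161) and 2610008E11Rik (0.175), and Pdgfrb to the progranulin gene Grn (0.263) and Zfhx4 (0.267). Ly6a lay nearest to Gaa (0.183) and Slc9a3r2 (0.257), and Dlk1 to Ccdc61 (0.166) and Dynlt1f (0.208). Among these 6 genes none had another as its nearest profile, the closest pair being Pdgfra and Pdgfrb at 0.663, and the other 4 markers were not compared.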

How the data were processed

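RNA was labelled with Cy3 and hybridised to 1-colour Agilent arrays, per the labels' protocols. The deposited intensity values are the processed signals of Agilent Feature Extraction 10.7.3.1, per the file headers, and the authors' series table held the same values. Signals were taken to log2 and set against the array's own 75th percentile, which became 0. Control spots (1377 of 44397) and outlying spots (101 to 247 an array) were left out, and spots of a probe were averaged. Of 39429 probes 69.1% were named, through their accessions and the RefSeq gene table of GRCm38.p6, used for names and promoters only. The brightest probe on average stood for a gene.

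Each comparison was fitted with limma 3.58.1 (R 4.3.3) on the groups compared, over genes well above background on at least 4 arrays, with 2-sided p-values adjusted by Benjamini-Hochberg. The 10 genes and the other lists were chosen with earlier results of these data known. All 10 genes are named; of each other list, up to 4 called genes of largest change a comparison, and the 2 nearest profiles of each gene detected on all arrays. Deviations of same-numbered samples, which shared a slide, correlated at 0.703 to 0.767 in the Pparg knockdown. Those of other samples on the same slide correlated at 0.69 to 0.725. In the other comparisons same-numbered samples correlated between −0.195 and 0.499, the highest being in the cold knockout (0.0412 to 0.499). With arrays in groups of 4, their number limits the precision. Alternatives were other scalings, background corrections, probe filters, slide and replicate blocks, wider fits, and leaving out single arrays.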

Additional observations from a re-analysis of the deposited data

Results flagged for a closer look

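Among 75 groups of 4 arrays, 2 held an array far from the other 3, where chance gives about 1 in 20 groups. Pdgfrb was at −0.07 on array 3 of the Pparg control cultures, with the others between 0.06 and 0.07. Cd34 was at 3.13 on array 1 of the room temperature control mice, with the others between 3.49 and 3.50.

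The knockout effect differed between cold and room temperature for 3 genes by limma's test of the difference: Cd34 by 1.26, Mfap5 by 1.26 and Pdgfrb by 0.78 on the log2 scale. In the same test the second probe of Cd34 gave 0.83 and did not pass (adjusted p = 0.232). The Pparg and Gyk knockdown effects differed for 7 genes: Fap by 2.70, Gsn by 2.16, Mfap5 by 1.34, Pdgfra by 1.14, Pdgfrb by 1.06, Ly6a by 1.0 and Cd34 by 0.61. The second probe of Gsn gave 1.33 there and did not pass (adjusted p = 0.211). Mfap5 (adjusted p = 0.0498) and Cd34 (adjusted p = 0.0499) each lost the call in 17 alternatives. What these differences share with slide and scan day was not tested.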

How the results depend on the processing

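Of 40 called results, 763 alternative values kept the direction and the call in 674 cases, lost the call in 87 and turned direction in 2, while 37 results that were not called gave 706 values, of which 24 passed in the same direction and 34, in 13 of the results, had the opposite sign, 1 of them passing. The causes were not tested. The count of the 10 genes called in the Gyk knockdown (0) was 2 with all culture groups in the fit and 2 without the arrays of low signal, an alternative chosen after seeing the data. Leaving out the cold control array of highest muscle signal is the same fit as leaving out cold control array 2 and was counted once. For cold against room temperature in knockout mice it was 5 under normexp (8), for the knockout effect 0 under normexp (3), and for the difference of knockdown effects 4 under normexp, with probes well above background on every array, and with the mean of a gene's probes (7).

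Leaving out single arrays gave 6 to 6 genes called in the Pparg knockdown, 0 to 1 in the Gyk knockdown, 3 to 5 in the room temperature knockout, 4 to 8 in the cold knockout, 4 to 6 for cold in controls, 7 to 8 for cold in knockouts, 3 to 4 for the knockout effect and 5 to 6 for the difference of knockdown effects. With the mean of both probes, Gsn turned to −0.64 for cold in controls and −0.05 for cold in knockouts, and Cd34 turned to −0.03 in the difference of knockdown effects under normexp.

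Over all genes, the count called in the Pparg knockdown (4464) was 7647 with a slide block and 7466 with a replicate block. In the Gyk knockdown (1056) it was 250 under normexp, 449 with no filter, 2489 with all culture groups, 114 with a replicate block and 291 to 1341 without single arrays. It was 2897 under normexp in the room temperature knockout (5901), 5040 for cold in knockouts (9053), 600 for the knockout effect (1875; 1217 to 2166 without single arrays), and 871, or 3034 with a slide block, for the difference of knockdown effects (1675). Under the replicate block 6 of 9 genes tested were called in the Pparg knockdown, where 7466 of all 12843 genes were. In the Gyk knockdown 0 of 9 were, against 114 of 12219. Of 10 genes, 4 were called in the room temperature knockout, against 5081 of 13232, and 7 in the cold knockout, against 4704 of 12983. For the knockout effect 4 were called, where Fap passed (0.59, adjusted p = 0.0323, limma), and the share of all genes is not given here.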
